A study of Rattus norvegicus with 6 samples.

Results

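The miR-344 family was followed in small RNA libraries of rat cortical neurons that had received brain-derived neurotrophic factor (BDNF) or its vehicle. Its members are the 7 rows of the count tables whose names start with rno-miR-344, of 649 mature miRNAs listed. They are rno-miR-344a-3p, rno-miR-344a-5p, rno-miR-344b-1-3p, rno-miR-344b-3p, rno-miR-344b-5p, rno-miR-344g and rno-miR-344i. The rows were chosen by name. Both arms of miR-344b were selected on measured values of these same libraries, namely their nearly equal reads in control libraries and their 5p/3p ratio after BDNF, so the values of rno-miR-344b-5p and rno-miR-344b-3p are a description without a test. The neurons came from cortices of Sprague-Dawley rat embryos at day 18 and, by the sample labels, were used after 7 days in vitro, whereas the text of the study gives a slightly younger age. The 3 control cultures received 0.1% BSA and the 3 BDNF cultures received BDNF at 100 ng/ml, each for 20 min, with replicates numbered 1 to 3 in both groups. Per the methods, the 6 libraries are biological replicates sequenced in one lane, and cell division of non-neuronal cells was blocked in all cortical cultures.

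A miRNA gene is transcribed as a hairpin, which Drosha and then Dicer cut to a short duplex with a strand from its 5′ arm (5p) and a strand from its 3′ arm (3p). An Argonaute protein keeps one strand, and bases 2 to 8 of that strand, the seed, select most of its target mRNAs. MiR-344 is a family annotated in rat and mouse and known mainly from brain tissue. Whether it exists outside rodents cannot be read from rat libraries.

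The libraries held from 10374120 to 12533029 counts, so that 10 RPM (reads scaled to the library total) stood for 103.7 to 125.3 reads. The 7 neuronal marker miRNAs, such as miR-9a-5p, miR-128-3p and miR-124-3p, summed to between 338180 and 395680 RPM in control and between 379840 and 414960 RPM in BDNF libraries. Most of this sum was miR-9a-5p (249570 to 331060 RPM), whereas miR-124-3p had 4785 to 5879 RPM. The lowest of the 7 was miR-153-3p (19.6 to 40.4 RPM). The sum thus mainly follows a single miRNA and does not measure the share of neurons. Of 8 markers of astrocytes, oligodendrocytes and microglia, 7 were listed, and they summed to between 5600 and 7311 RPM in control and between 5631 and 7510 RPM in BDNF libraries. Nearly all of that was miR-21-5p (5571 to 7480 RPM), and 4 of the 7 stayed below 10 RPM. The 8 markers of vessels, blood and muscle summed to between 145.5 and 203 RPM in control and between 142.3 and 198 RPM in BDNF libraries. The ranges of both non-neuronal sums overlapped between groups. The part that other cells have in the miR-344 reads was not tested, and in whole cultures fewer cells of a type and less RNA per cell cannot be told apart.

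The sequences are shown first, because members that differ by a single base have separate rows. RefSeq on build GRCr8 held a mature sequence for 6 of the 7 names. MiR-344a-3p was the name without one. The 6 are written 5′ to 3′ with the seed in capitals.

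miR-344b-5p: aGUCAGGCugcugguuauauuc
miR-344g: aGUCAGGCuccuggcaggaguc
miR-344a-5p: uCAGGCUCcuggcuagauu
miR-344b-3p: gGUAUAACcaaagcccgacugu
miR-344b-1-3p: gAUAUAACcaaagcccgacugu
miR-344i: cUCUAGCCagggcuugacugca

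MiR-344b-5p and miR-344g shared the seed GUCAGGC, and the 6 sequences carried 5 different seeds. The 3p products miR-344b-3p and miR-344b-1-3p had the same 22 bases except for G2A (miR-344b-3p has the first letter and miR-344b-1-3p the last, counted from 1 at the 5′ end). The difference lies in the seed, so these products of the same arm have different seeds. MiR-344b-5p, miR-344a-5p and miR-344g lie on the 5p side of their hairpins and the other 3 on the 3p side.

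RefSeq held 7 miR-344 hairpins, all on the minus strand of chromosome 1 within 809.7 kb. Mir344b-2 (chr1:124028505-124028575), Mir344b-1 (chr1:124035661-124035758) and Mir344b-3 (chr1:124044536-124044606) lie within 16.1 kb. A gap of 610.4 kb separates them from Mir344a-2 (chr1:124655022-124655128), Mir344-1 (chr1:124718754-124718851), Mir344g (chr1:124754942-124755020) and Mir344i (chr1:124838110-124838208). In the gene table of the same assembly, 7 long non-coding RNA genes and 1 pseudogene lie between the first and the last hairpin, and no protein-coding gene does. A further long non-coding RNA gene, LOC120099831, overlaps Mir344b-2. The next protein-coding genes beyond Mir344i are Ndn, Magel2 and Mkrn3, known as imprinted genes of the Prader-Willi region. No imprinting was measured here.

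**Figure D1:**
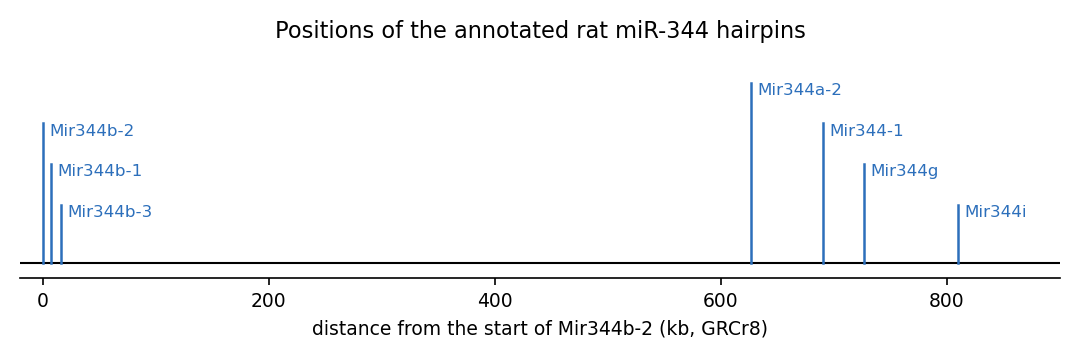
The horizontal axis gives the distance in kb from the start of Mir344b-2 on GRCr8, and each vertical line is 1 of the 7 annotated hairpins (line heights only separate the names). The 3 miR-344b hairpins sit within 16.1 kb, and the other 4 start after a gap of 610.4 kb.

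The hairpins of miR-344b are shown with the mature strands in capitals, because they decide which reads each row can hold. Mir344b-2 and Mir344b-3 were identical over all 71 bases. Mir344b-1 held the same 71 bases with 1 mismatch, the one that separates the 3p products.

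Mir344b-2: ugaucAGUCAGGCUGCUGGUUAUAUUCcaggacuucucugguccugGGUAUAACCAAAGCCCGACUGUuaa
Mir344b-1: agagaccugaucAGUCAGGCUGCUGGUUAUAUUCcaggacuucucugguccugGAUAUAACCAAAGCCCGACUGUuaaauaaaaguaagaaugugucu

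The row miR-344b-5p thus has 3 annotated source hairpins, miR-344b-3p has 2 and miR-344b-1-3p has 1. Reads of the 5p strand carry no mark of their hairpin. The assignment by the authors allowed 1 mismatch and up to 3 trimmed bases at either end, so some reads could fit both 3p rows. The division of reads between miR-344b-3p and miR-344b-1-3p is therefore uncertain.

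The family took from 0.0300 to 0.0417% of all counts. Its summed level was 356.9, 332.6 and 388.5 RPM in control replicates 1 to 3 and 299.9, 393.4 and 416.9 RPM in BDNF replicates 1 to 3. The BDNF libraries included both the lowest and the highest sum, and the groups overlapped.

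MiR-344a-3p, by its name a 3p strand of miR-344a, made up most of the family. RefSeq held no sequence for it, so its source hairpin was not established here. Mir344a-2 and Mir344-1 share a run of 69 identical bases. MiR-344a-3p had 2972, 3224 and 2828 reads in control and 2807, 3648 and 3641 reads in BDNF libraries. This amounted to 272 ± 13.8 RPM in control and 289.9 ± 43.8 RPM in BDNF libraries (SD, n = 3 each). Its share of the family's reads lay between 70.2 and 82.2% in every library, and by mean level it was number 133 of the 649 listed miRNAs. Its mean level was 6.71 times that of the next member.

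The row named as the opposite strand, miR-344a-5p, was read 1, 0 and 3 times in control and 1, 2 and 2 times in BDNF libraries. Over all libraries it took 9 of the 19129 reads of both miR-344a arms, or 0.0470% (exact Clopper-Pearson 95% interval 0.0215 to 0.0893%, which covers counting error only). Nearly all counted reads of the miR-344a arms were thus in the 3p row. RefSeq gives miR-344a-5p as only 19 bases, and the assignment allowed at most 3 added bases at the 3′ end. Longer reads of this strand may therefore have gone uncounted, which was not tested.

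MiR-344b-1-3p was the second most abundant member. It had 459, 483 and 547 reads in control and 382, 388 and 580 reads in BDNF libraries, or 45.1 ± 7.16 and 38.6 ± 8.80 RPM (SD, n = 3 each). Replicate 3 was the highest library of each group, and the groups overlapped.

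The rows miR-344b-5p and miR-344b-3p were close to each other in level. MiR-344b-5p had 123, 217 and 265 reads in control and 155, 180 and 392 reads in BDNF libraries, or 18.2 ± 6.92 and 20.7 ± 10.7 RPM (SD, n = 3 each). MiR-344b-3p had 140, 210 and 348 reads in control and 119, 168 and 306 reads in BDNF libraries, or 21.2 ± 10.8 and 16.9 ± 7.96 RPM (SD, n = 3 each). They were numbers 298 and 300 of the 649 by mean level.

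The remaining members were rare. MiR-344i, the one annotated strand of its hairpin, had 31, 35 and 39 reads in control and 39, 49 and 41 reads in BDNF libraries, or 3.17 ± 0.51 and 3.71 ± 0.55 RPM (SD, n = 3 each). MiR-344g, which has the same seed as miR-344b-5p, was not read in any control library and was read 1, 2 and 0 times in BDNF libraries. A count of 0 allows up to 0.287, 0.239 and 0.289 RPM in control replicates 1 to 3, so its absence was not shown. With miR-344a-5p, these 3 members did not pass the filter of a mean of 10 RPM in either group, and 4 of the 7 did.

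**Figure D2:**
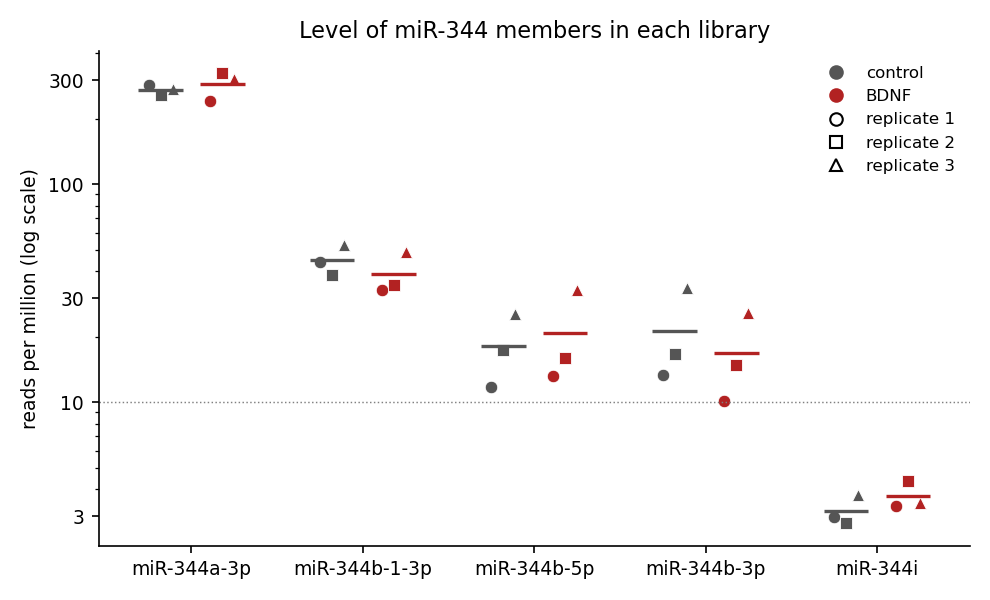
The vertical axis gives RPM on a log scale for the 5 most abundant members, with 1 point per library, the symbol for the replicate number and a bar at the group mean. MiR-344a-3p lies between 240.3 and 323 RPM, the miR-344b rows between 10.2 and 52.7 RPM, and miR-344i below the dotted line at 10 RPM.

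MiR-344b-3p and miR-344b-5p varied more between replicates than most miRNAs. The coefficient of variation of miR-344b-3p was 50.8% in control and 47.0% in BDNF libraries, the 6th and 9th highest of the 336 miRNAs that passed the filter. That of miR-344b-5p was 38.0% and 51.5%, the 16th and 7th highest. Counting error alone would give between 6.42 and 7.11% for these rows at their depth. MiR-344b-1-3p had 15.9% and 22.8%, and miR-344a-3p had 5.07% and 15.1%, beside medians of 15.1% in control and 14.7% in BDNF libraries over all 336.

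For miR-344b-3p and miR-344b-5p the replicates had the same order in both groups. The highest control library had 2.50 times the lowest for miR-344b-3p and 2.17 times for miR-344b-5p, and in BDNF libraries the folds were 2.52 and 2.48. For both rows replicate 3 was highest and replicate 1 lowest. For miR-344a-3p the folds were 1.11 and 1.35, with replicate 1 the highest in control and the lowest in BDNF libraries.

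**Figure D3:**
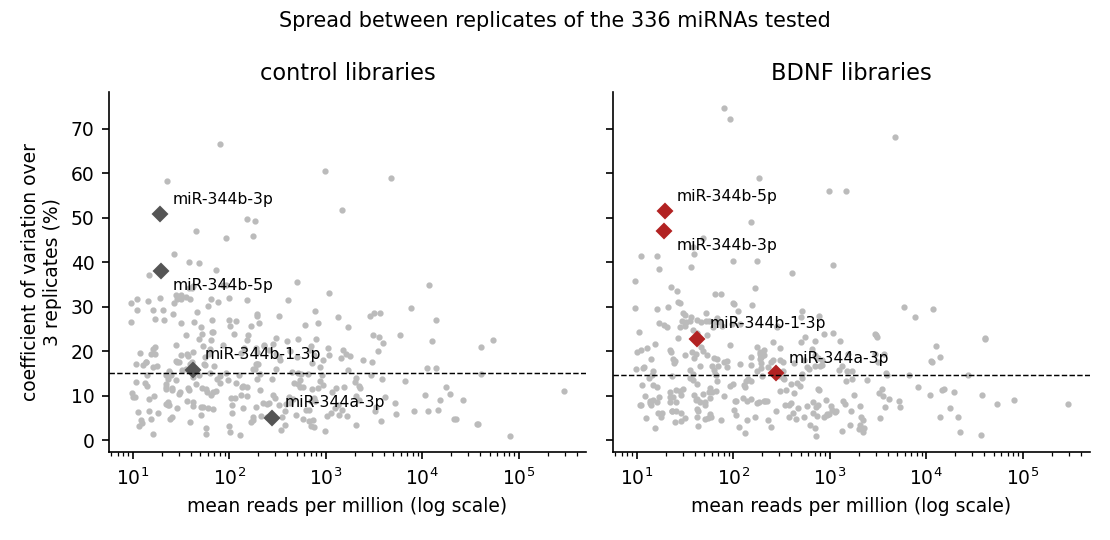
Each point is 1 of the 336 miRNAs that passed the filter, by mean RPM (log scale) and by the coefficient of variation over 3 replicates in percent, for control and BDNF libraries apart. The dashed lines mark the medians of 15.1 and 14.7%, and the coloured points of miR-344b-3p and miR-344b-5p lie far above them in both panels.

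The division between the near-identical 3p rows also went with the replicate number. MiR-344b-1-3p had 3.28, 2.30 and 1.57 times the reads of miR-344b-3p in control replicates 1 to 3. In BDNF replicates 1 to 3 the ratio was 3.21, 2.31 and 1.90. The ratio was thus close in the control and BDNF libraries of replicates 1 and 2, and in each group it was highest in replicate 1 and lowest in replicate 3. All 6 libraries held more of miR-344b-1-3p, which has 1 annotated hairpin, than of miR-344b-3p, which has 2.

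The patterns over the 6 libraries rest on the same reads as the spread between replicates and are no second observation of it. Likeness was measured as the root mean square difference of log2 RPM after centring each miRNA on its own mean, as a description. Nearest to miR-344b-3p were miR-129-1-3p (0.071) and miR-132-3p (0.113), and nearest to miR-344b-5p were miR-770-5p (0.095) and miR-212-5p (0.15). These miRNAs also varied widely, with coefficients of variation in control libraries of 49.84, 60.55, 40.04 and 49.32% in the order named. MiR-132 and miR-212 are encoded together and are known to rise with neuronal activity. Here the log2 fold change with BDNF was -0.25 (standard error 0.46) for miR-132-3p and 0.16 (standard error 0.42) for miR-212-5p. A link of miR-344b to neuronal activity was not tested. The median difference to the 332 miRNAs outside the family was 0.522 for miR-344b-3p and 0.469 for miR-344b-5p. Nearest to miR-344a-3p were miR-128-3p (0.076) and miR-151-3p (0.099), and nearest to miR-344b-1-3p were miR-331-3p (0.074) and miR-412-3p (0.080), with medians of 0.23 for both. Between the family's own rows the difference ran from 0.26 to 0.55. It was 0.277 between miR-344b-3p and miR-344b-5p, 0.38 between miR-344b-3p and miR-344b-1-3p and 0.395 between miR-344b-5p and miR-344b-1-3p.

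BDNF against control addressed whether a short stimulation changes the level of mature miRNAs. None of the 4 members tested passed an unadjusted P of 0.05 in edgeR's quasi-likelihood test, beside 2.98% of the 336 miRNAs tested. Both arms of miR-344b are in that count by the rule that chose them, so nothing is read from it. The log2 fold change was 0.11 (standard error 0.13) for miR-344a-3p, with an unadjusted P of 0.40. It was -0.21 (standard error 0.15) for miR-344b-1-3p, with an unadjusted P of 0.22. The adjusted P in edgeR was 0.999 for each, and no miRNA of the 336 passed after adjustment. The description for miR-344b-3p was -0.31 (standard error 0.38) and for miR-344b-5p 0.19 (standard error 0.36). Thus 2 members had positive and 2 negative values, with a median of -0.05 beside -0.0015 over all miRNAs tested. These signs were the same under all 3 normalizations, but not with every library left out. The value of miR-344b-3p was 0.12 without control replicate 3, and that of miR-344b-5p was -0.22 without BDNF replicate 3.

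Within replicate numbers, the members of the 3p side of miR-344b were lower in BDNF libraries each time. The ratio of BDNF to control RPM was 0.744, 0.893 and 0.924 for miR-344b-1-3p in replicates 1 to 3. For miR-344b-3p it was 0.76, 0.889 and 0.766. The other rows had no common direction, with 1.13, 0.922 and 1.29 for miR-344b-5p and 0.844, 1.26 and 1.12 for miR-344a-3p. How many of all miRNAs tested had every ratio on one side of 1 was not counted. MiR-344b-3p was also selected on its values, so nothing is read from these directions.

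Since libraries with the same replicate number deviated together, a fit blocked on replicate number is given as well. In it 20.5% of all miRNAs tested passed the unadjusted threshold and none passed after adjustment. Of the 2 members not selected on their values, miR-344b-1-3p passed the unadjusted threshold and miR-344a-3p did not. With the block, the log2 fold change of miR-344b-1-3p was -0.21 (standard error 0.09), with an unadjusted P of 0.041 and an adjusted P of 0.23 in edgeR. MiR-344a-3p had 0.11 (standard error 0.09) with an adjusted P of 0.59. For miR-344b-3p the value with the block was -0.30 (standard error 0.10), given as a description. Without control replicate 3, the value of miR-344b-3p in the unblocked fit turned from -0.31 to 0.12.

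**Figure D4:**
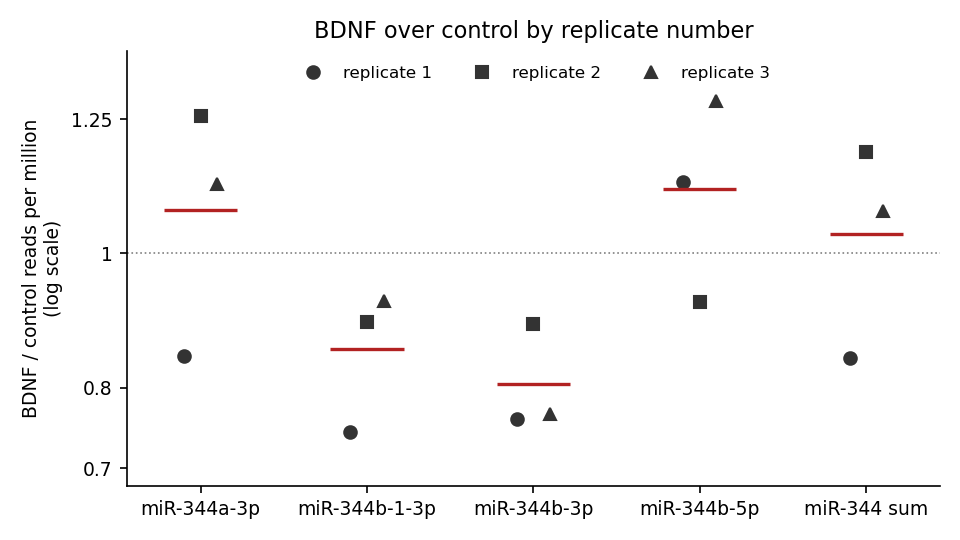
The vertical axis gives the ratio of BDNF to control RPM on a log scale for each replicate number (symbols), with the mean as a red bar and 1 as the dotted line. All 3 ratios lie below 1 for miR-344b-1-3p and miR-344b-3p, and they lie on both sides of 1 for miR-344a-3p, miR-344b-5p and the family's sum.

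The 5p/3p ratio is used to ask which strand of a duplex is kept. The study compared it between conditions over its miRNAs and reported no change with BDNF. For miR-344b the 5p row can also hold reads of Mir344b-1, whose 3p strand has its own row. The ratio of the rows paired by name is therefore not that of a single duplex. With the rows paired by name, the log2 ratio of miR-344b-5p to miR-344b-3p was -0.19, 0.05 and -0.39 in control replicates 1 to 3. In BDNF replicates 1 to 3 it was 0.38, 0.10 and 0.36. The means were -0.18 ± 0.22 and 0.28 ± 0.16 (SD, n = 3 each), a difference of 0.46 (standard error 0.18 in limma), and all BDNF libraries lay above all control libraries. In replicate 2 the libraries differed by only 0.05, against 0.57 and 0.75 in replicates 1 and 3. Among 83 precursors with both arms past the filter, this ratio was the 4th closest to balance in control libraries, where the median distance from 0 was 2.45. How many of the 83 precursors had groups that did not overlap was not counted, so nothing is read from this separation. The ratios given here are the values on which miR-344b was selected, and no test is given.

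The near balance held only for the rows with matching names. When the 3p arm was taken as the sum of miR-344b-3p and miR-344b-1-3p, a pairing chosen after seeing the data, the 3p arm prevailed in all 6 libraries. There were 123, 217 and 265 reads of the 5p strand against 599, 693 and 895 of both 3p rows in control libraries. In BDNF libraries there were 155, 180 and 392 against 501, 556 and 886. The 5p strand thus had between 0.205 and 0.442 times the reads of the 3p strands. The mean log2 ratio was -1.90 ± 0.33 in control and -1.50 ± 0.28 in BDNF libraries (SD, n = 3 each). The difference was 0.41 (standard error 0.23), higher in BDNF libraries in all 3 replicate numbers, and the groups now overlapped. Both the miR-344a rows and the pooled miR-344b rows thus had more counted reads on the 3p side. The excess was larger in miR-344a, where longer 5p reads may have gone uncounted.

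**Figure D5:**
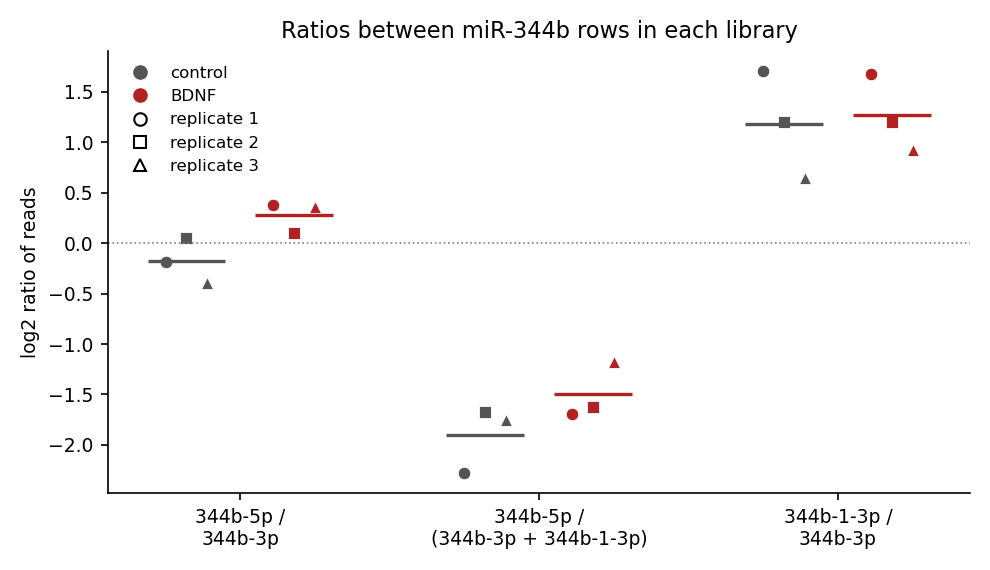
The vertical axis gives the log2 ratio of reads for 3 pairs of miR-344b rows, with 1 point per library, the symbol for the replicate number and a bar at the group mean. The ratio to miR-344b-3p alone lies between -0.39 and 0.38, the ratio to both 3p rows lies between -2.28 and -1.18, and the ratio of both 3p rows orders the libraries by replicate number in each group.

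Seeds were compared for the members with a RefSeq sequence, which leaves out miR-344a-3p, the most abundant one. Outside the family, 2 listed miRNAs shared a seed with one of these members, and they are shown for their seed in capitals.

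miR-410-3p: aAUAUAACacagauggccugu
miR-484: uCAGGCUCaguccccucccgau

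MiR-410-3p, of the imprinted miR-379 to miR-410 cluster, has the seed of miR-344b-1-3p, and both were lower on average in BDNF libraries. It was far more abundant, at 454 ± 43.8 RPM in control and 381 ± 23.4 RPM in BDNF libraries (SD, n = 3 each). Its difference was -0.23 on the log2 scale (standard error 0.10), with an unadjusted P of 0.0496 and an adjusted P of 0.999 in edgeR. It was thus 1 of the 10 miRNAs past the unadjusted threshold. Among the 583 listed miRNAs with a sequence, none outside the family shared the seed of miR-344b-3p. MiR-484 has the seed of miR-344a-5p and was read at 167 ± 7.48 RPM in control and 187 ± 29.3 RPM in BDNF libraries (SD, n = 3 each). Its log2 fold change of 0.19 (standard error 0.16) was within the spread between replicates.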

How the data were processed

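After adapter trimming and removal of poor reads and of reads under 15 nt, the authors used Miraligner to assign reads to miRBase 21 mature sequences of the rat (1 mismatch, 3 nt trimmed at either end, 3 nt added at the 3′ end). The deposited values are raw read counts per mature miRNA; tool versions are not given in the sources used here. RPM were computed from the column sums. Groups and replicate numbers came from the sample titles. The filter kept 336 miRNAs whose mean reached 10 RPM in either group, and these were fitted with edgeR 4.0.16 (R 4.3.3; TMM, quasi-likelihood test, no block), with the standard error as the size of the fold change over the square root of F and Benjamini-Hochberg adjustment over all 336. Arm ratios used 0.5 added reads and limma 3.58.1. The edgeR script was tested on simulated counts. Members, lists and the rule for named miRNAs (all miR-344 rows, seed partners, the 2 nearest patterns) were chosen with earlier results of these data known. Control and BDNF libraries with the same number deviated together from their group means across the 336 miRNAs (correlations 0.805, 0.484 and 0.887). The numbers were therefore taken as pairs in the comparisons by replicate number and in the blocked alternative, but not in the main fits. No 2 libraries of a group agreed within sampling noise (chi-square of at least 220.3 per degree of freedom). Sequences are from RefSeq (GRCr8), where 583 of the 649 names matched. Alternatives were other normalizations, no filter, DESeq2 1.42.0, the replicate block, another pseudocount and leaving out each library.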

Additional observations from a re-analysis of the deposited data

How the results depend on the processing

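No miR-344 member passed an unadjusted P of 0.05 in edgeR under the other 2 normalizations, without the filter, in DESeq2 1.42.0 or with any library left out (0 to 0). With the replicate block 2 members did, of which miR-344b-3p was selected on its values, so that its place in this count is no test. Over all miRNAs, 10 of 336 passed in the fit as reported, 69 with the replicate block, 6 with library size alone, 12 in DESeq2, 15 of 649 without the filter and 3 to 32 with single libraries left out. Without the filter all 7 members were fitted, and miR-344i had 0.26 (standard error 0.22). The log2 fold change of miR-344a-3p ranged from 0.01 to 0.19 with single libraries left out, that of miR-344b-1-3p from -0.33 to -0.12, that of miR-344b-3p from -0.65 to 0.12 and that of miR-344b-5p from -0.22 to 0.46. The sign of miR-344b-5p changed without BDNF replicate 3 (-0.22) and without control replicate 1 (-0.00074). With both 3p rows merged, chosen after seeing the data, the value was -0.24 (standard error 0.21). The difference in log2 5p/3p ratio of miR-344b ranged from 0.35 to 0.57 with single libraries left out. MiR-344b was selected on this ratio, so the range is a description and no test. The log2 ratio of the summed family RPM was 0.04 and ranged from -0.05 to 0.17. A fold change of miR-344a-5p or miR-344g was not readable at this depth, and counts per isomiR were not analysed here.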
